A study of Mus musculus with 18 samples.

Results

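The AP-1 genes Jun, Junb, Jund, Fos, Fosb, Fosl1, Fosl2 and Atf3 were followed through the response of mouse embryonic fibroblasts to the inflammatory cytokine TNF (tumour necrosis factor alpha). They were taken by symbol from the table of gene counts, which holds 55536 genes; all 8 were found, and all 8 were among the 16322 genes that passed the filter on low counts. Total RNA of 3 immortalised fibroblast lines was sequenced in 18 paired-end libraries. One line was knocked out for p65, the product of Rela and a subunit of NF-κB (p65 KO), one for IKK2, the product of Ikbkb and an activating kinase of the pathway (IKK2 KO), and one was wild type (WT). Each line was left untreated or was given 10 ng/ml of TNF for 45 or 90 min, which made 9 groups of 2 libraries, here called a and b. Each genotype was a single immortalised line, so that genotype and other differences between lines cannot be told apart. The labels do not say that the 2 libraries of a group came from separate cultures, so that p-values cover the spread among these samples alone, and that spread may be technical.

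AP-1 is a transcription factor made of a pair of leucine-zipper proteins. JUN proteins (Jun, Junb, Jund) can pair with each other or with FOS proteins (Fos, Fosb, Fosl1 or FRA-1, Fosl2 or FRA-2), whereas FOS proteins need a JUN partner, and ATF3 is a stress-induced member of the related ATF family. TNF activates both NF-κB, through IKK2 and p65, and MAP kinases such as JNK and p38, and JUN and FOS genes are known as immediate-early genes that respond to those kinases within minutes in fibroblasts. The comparisons address how far the TNF response of each gene is present in lines without p65 or without IKK2.

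All positions are on the GRCm38 mouse genome, from the GENCODE M21 annotation. Jun (ENSMUSG00000052684) is a single-exon gene on chromosome 4, 95049034 to 95052222, minus strand. Junb (ENSMUSG00000052837) lies on chromosome 8, 84974484 to 84978718, minus strand, and Jund (ENSMUSG00000071076), also of a single exon, on chromosome 8, 70698949 to 70700616, plus strand. Fos (ENSMUSG00000021250) lies on chromosome 12, 85473890 to 85477273, plus strand, and Fosb (ENSMUSG00000003545) on chromosome 7, 19302696 to 19310051, minus strand. Fosl1 (ENSMUSG00000024912) lies on chromosome 19, 5447547 to 5455946, and Fosl2 (ENSMUSG00000029135) on chromosome 5, 32135801 to 32157842, both on the plus strand. Atf3 (ENSMUSG00000026628) lies on chromosome 1, 191170296 to 191218039, minus strand.

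Promoter windows of 300 bases, 250 before to 50 after the gene's start in RefSeq (GRCm38.p6), were matched for 7 of the 8 genes, and Fosl1 had no entry. The windows of Jun (chr4:95052173-95052472, minus strand), Junb (chr8:84978699-84978998, minus strand), Fos (chr12:85473640-85473939, plus strand) and Atf3 (chr1:191183284-191183583, minus strand) are shown because these genes had the largest TNF responses. Capitals mark the matches to 4 motifs: TNACNTCA, a spacing variant of the sites that JUN and ATF proteins bind, TGACGT, the core of sites bound by CREB and ATF proteins, the TATA box TATAAA, and, by name, the κB motif of NF-κB.
Jun: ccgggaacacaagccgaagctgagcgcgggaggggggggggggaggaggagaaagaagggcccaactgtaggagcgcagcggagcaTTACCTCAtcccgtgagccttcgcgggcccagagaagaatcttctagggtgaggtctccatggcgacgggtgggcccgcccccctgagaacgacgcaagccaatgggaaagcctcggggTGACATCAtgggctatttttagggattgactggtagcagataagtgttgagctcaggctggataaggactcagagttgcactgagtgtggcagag
Junb: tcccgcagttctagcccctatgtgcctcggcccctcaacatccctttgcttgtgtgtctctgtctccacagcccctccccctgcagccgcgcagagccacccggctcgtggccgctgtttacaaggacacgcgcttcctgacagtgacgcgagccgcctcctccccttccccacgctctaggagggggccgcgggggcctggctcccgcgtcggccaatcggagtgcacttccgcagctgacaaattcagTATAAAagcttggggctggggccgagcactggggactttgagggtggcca
Fos: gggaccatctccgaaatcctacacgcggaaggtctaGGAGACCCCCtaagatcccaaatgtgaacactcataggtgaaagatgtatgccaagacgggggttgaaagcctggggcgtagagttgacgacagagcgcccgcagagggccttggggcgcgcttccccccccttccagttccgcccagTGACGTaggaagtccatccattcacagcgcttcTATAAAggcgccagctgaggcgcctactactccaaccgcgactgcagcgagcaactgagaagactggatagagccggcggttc
Atf3: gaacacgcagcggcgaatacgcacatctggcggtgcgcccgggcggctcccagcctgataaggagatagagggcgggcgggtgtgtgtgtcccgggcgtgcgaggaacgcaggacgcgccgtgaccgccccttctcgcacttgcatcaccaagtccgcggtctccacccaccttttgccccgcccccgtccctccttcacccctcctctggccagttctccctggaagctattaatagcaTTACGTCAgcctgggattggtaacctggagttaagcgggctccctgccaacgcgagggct
Jun held 2 matches to TNACNTCA, TTACCTCA from −164 to −157 and TGACATCA from −45 to −38, counted from the start site. Atf3 held TTACGTCA from −10 to −3, which also contains the core TGACGT on the other strand, and its RefSeq start lies 34706 bases downstream of the first GENCODE start. Fos held the core TGACGT from −66 to −61, the TATA box from −33 to −28 and a κB match from −214 to −205. Junb held a TATA box from 1 to 6, its RefSeq start lying at −30 from the GENCODE start. The other κB matches were in the windows of Fosb and Fosl2, and the window of Jund, whose RefSeq start lies at −1210 from the GENCODE start, held 2 matches to TNACNTCA on the other strand. The canonical AP-1 site TGACTCA and the CArG box, the site of serum response factor, had no match in the 7 windows. Bases more than 250 before the start were not searched, so that sites there would be missed. Over all 32851 windows of the table, both strands searched except for TATAAA, the shares with a match were 16.4% for TNACNTCA, 7.51% for TGACGT, 8.32% for TATAAA, 4.51% for κB, 5.20% for TGACTCA and 1.63% for the CArG box. A match is a run of letters, and binding was not measured.

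The libraries held between 16.7 and 23.5 M counts each. Rela, the targeted gene, had 5.25 and 6.11 CPM (counts relative to library size, scaled by TMM) in untreated p65 KO cells, against 63.2 and 64.4 CPM in untreated WT cells. Ikbkb had 43.7 and 43.1 CPM in untreated IKK2 KO cells, against 59.3 and 60.4 CPM in untreated WT cells, but p65 KO cells had 42.7 CPM in both libraries, so that Ikbkb does not tell the knock-outs apart. The summed level of 10 fibroblast markers was 4682 to 4685 CPM in untreated p65 KO cells and 11004 to 11336 CPM in untreated IKK2 KO cells, against 11163 to 11214 CPM in untreated WT cells. Sums of epithelial, endothelial and myeloid markers reached at most 3.23, 1.21 and 2.23 CPM in any library. The part of the fibroblast markers in the differences between lines was not tested.

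In untreated cells, compared per kilobase of annotated exon, Junb and Fosl1 were among the 3 most abundant AP-1 genes in every line, and Fos, Fosb and Atf3 were the 3 least abundant. In p65 KO cells Junb averaged 84.0 ± 1.80, Fosl2 50.2 ± 0.18 and Fosl1 45.8 ± 0.51 CPM per kb (SD, n = 2). In IKK2 KO cells Fosl1 led with 104.4 ± 0.58 CPM per kb, ahead of Junb with 44.0 ± 0.90 and Jund with 40.2 ± 2.21 CPM per kb. In WT cells Fosl1 at 78.3 ± 2.26 and Junb at 77.1 ± 1.34 CPM per kb were within their spread of each other, and Fosl2 followed at 56.5 ± 0.77 CPM per kb. At the low end, Atf3 averaged 1.67 ± 0.17 CPM per kb in p65 KO cells and 2.68 ± 0.12 in IKK2 KO cells, against 0.161 ± 0.039 CPM per kb in WT cells. Fos averaged 0.553 ± 0.042 CPM per kb in p65 KO cells and 0.946 ± 0.0015 in IKK2 KO cells, against 3.08 ± 0.33 CPM per kb in WT cells. The annotated exon length can exceed that of the transcript in use, and so these levels are approximate. Genes on the opposite strand also overlap 57.2% of the exon bases of Fosl1 and 52.6% of those of Jund. The effect of that overlap on these levels was not tested.

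**Figure D1:**
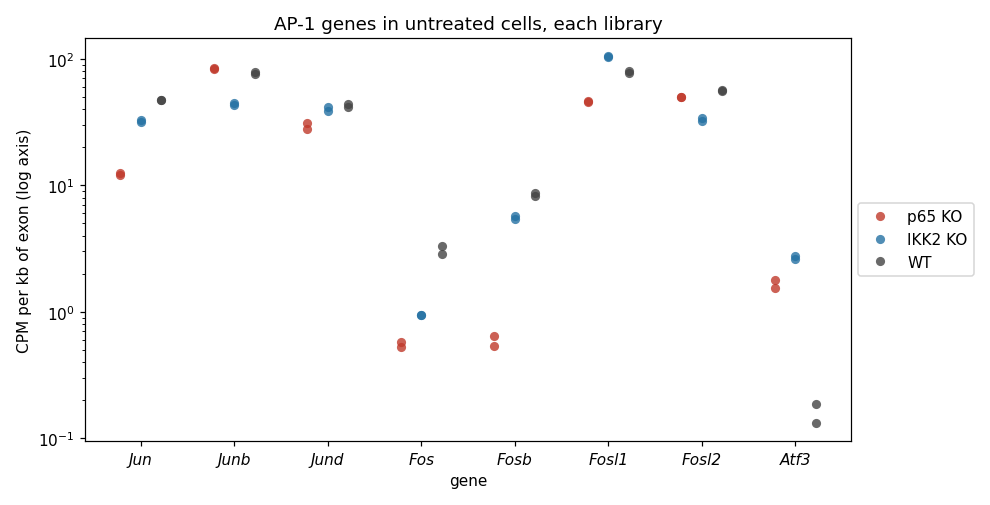
Level of each AP-1 gene in untreated cells, in CPM per kb of annotated exon on a log axis; each point is 1 of 2 libraries of p65 KO, IKK2 KO or WT cells. Jun, Fos and Fosb are lowest in p65 KO cells, and Atf3 is highest in IKK2 KO cells and lowest in WT cells.

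The make-up of each family differed between lines. Of the summed JUN genes (CPM per kb), Jun made up 9.80% ± 0.064 in untreated p65 KO cells and 27.7% ± 0.073 in untreated IKK2 KO cells, against 28.2% ± 0.44 in untreated WT cells (SD, n = 2). Junb made up 66.8% ± 0.74 in p65 KO cells and 37.8% ± 0.59 in IKK2 KO cells, against 46.2% ± 0.0048 in WT cells. Of the summed FOS genes, Fosl1 and Fosl2 together held nearly the whole in each line, and Fosl1 alone made up 47.2% ± 0.18 in p65 KO cells and 72.5% ± 0.28 in IKK2 KO cells, against 53.5% ± 0.78 in WT cells. Fos itself made up 0.570% ± 0.047 in p65 KO cells and 0.657% ± 0.0051 in IKK2 KO cells, against 2.10% ± 0.20 in WT cells. At 45 min of TNF the share of Fos was 0.807% ± 0.16 in p65 KO cells, 2.58% ± 0.13 in IKK2 KO cells and 3.51% ± 0.21 in WT cells.

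Without TNF, 6 of the 8 genes were lower in p65 KO cells than in WT cells and 2 were higher, where 80.8% of all genes tested differed in either direction. In untreated p65 KO cells Jun, the founding AP-1 subunit, had 40.0 and 38.6 CPM, against 150.0 and 149.6 CPM in untreated WT cells. Fosb had 4.02 and 3.36 CPM in p65 KO cells, against 51.6 and 54.0 CPM in WT cells. Fos had 1.23 and 1.37 CPM in p65 KO cells, against 6.70 and 7.80 CPM in WT cells. For these 3 genes every p65 KO library lay far below every WT library, with log2 differences of −1.93 ± 0.04 for Jun, −3.85 ± 0.10 for Fosb and −2.48 ± 0.17 for Fos (± standard error; adjusted p = 1.1e-34, 6.7e-33 and 6.9e-17, edgeR's quasi-likelihood test with Benjamini-Hochberg adjustment over all genes). In RNA of a whole culture, fewer expressing cells and less RNA per cell cannot be told apart. Smaller decreases were seen for Fosl1 (−0.77 ± 0.04), Jund (−0.54 ± 0.09) and Fosl2 (−0.17 ± 0.03). Atf3 went the other way, with 3.33 and 3.86 CPM in p65 KO cells, against 0.406 and 0.287 CPM in WT cells. This was a 10.4-fold higher level in p65 KO cells (log2 3.38 ± 0.26, adjusted p = 1.1e-15), measured against only 8 and 7 counts in the WT libraries. Junb had 196.2 and 190.3 CPM in p65 KO cells, against 179.6 and 175.2 CPM in WT cells, a log2 difference of 0.12 ± 0.04 (adjusted p = 0.0061). That call held in 9 of 12 alternative fits (adjusted p 4.7e-06 to 0.50), and was lost without WT untreated library b (0.11, adjusted p = 0.081), with a stricter filter on low counts and with protein-coding genes alone.

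Several neighbours overlap these genes on the opposite strand, and the strand setting of the counting is not given in the sources used here. The antisense gene Junos shares 232 exon bases with Jun, 7.28% of the exon bases of Jun. Junos had 0.867 and 0.332 CPM in untreated p65 KO cells, against 14.2 and 13.2 CPM in untreated WT cells (log2 −4.52 ± 0.18, adjusted p = 3.2e-25). Prdx2, a peroxiredoxin gene that shares 7.52% of the exon bases of Junb, had 839 and 854 CPM in untreated p65 KO cells, against 129.8 and 140.4 CPM in untreated WT cells. Ccdc85b covers 57.2% of the exon bases of Fosl1 and had 11 and 9.35 CPM in untreated p65 KO cells, against 22.5 and 22.4 CPM in untreated WT cells. Gm11175 covers 52.6% of the exon bases of Jund and stayed under 1 CPM in every library. The part of reads from these neighbours, or of reads lost to them, in the levels and differences of Jun, Junb, Jund and Fosl1 was not tested.

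In untreated IKK2 KO cells 5 of the 8 genes were lower and 2 were higher than in WT cells, where 74.3% of all genes tested differed. Fos had 2.22 and 2.23 CPM in IKK2 KO cells, against 6.70 and 7.80 CPM in WT cells (log2 −1.71 ± 0.17, adjusted p = 3.2e-12). Junb had 99.7 and 102.6 CPM in IKK2 KO cells, against 179.6 and 175.2 CPM in WT cells (−0.81 ± 0.05). Fosl2 had 313 and 327 CPM in IKK2 KO cells, against 552 and 542 CPM in WT cells (−0.77 ± 0.03). Fosb and Jun were lower by smaller amounts, at −0.60 ± 0.06 and −0.54 ± 0.04. The 2 genes that were higher were Fosl1, with 211 and 213 CPM in IKK2 KO cells against 156 and 162 CPM in WT cells (0.41 ± 0.04), and Atf3. Atf3 had 5.59 and 5.94 CPM in IKK2 KO cells, against 0.406 and 0.287 CPM in WT cells, a 16.6-fold higher level in IKK2 KO cells (log2 4.06 ± 0.24, adjusted p = 3.7e-19). Jund had 64.5 and 69.7 CPM in IKK2 KO cells, against 73.0 and 69.5 CPM in WT cells, and its difference of −0.09 had a 95% interval of −0.29 to 0.12. Under scaling by library size alone that difference was −0.27 and was called (adjusted p = 0.016; 0.016 to 0.85 over 12 alternatives), where the median of all genes also moved to −0.21.

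The knock-outs also differed from each other: 6 genes were higher and 2 lower in untreated IKK2 KO cells than in untreated p65 KO cells, where 72.4% of all genes tested differed. Fosb, at 35.9 and 33.7 CPM in IKK2 KO cells against 4.02 and 3.36 CPM in p65 KO cells, was 9.46-fold higher in IKK2 KO cells (log2 3.24 ± 0.11, adjusted p = 8.8e-28). Jun was 2.62-fold and Fosl1 2.28-fold higher in IKK2 KO cells, whereas Junb (−0.93 ± 0.05) and Fosl2 (−0.60 ± 0.03) were lower there. Fos (0.77 ± 0.25), Atf3 (0.67 ± 0.14) and Jund (0.45 ± 0.10) were the other 3 that were higher.

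At 45 min of TNF 4 of the 8 genes rose in p65 KO cells, 7 in IKK2 KO cells and 6 in WT cells, and none fell. The shares of all genes tested that changed in those comparisons were 1.66% in p65 KO cells, 8.76% in IKK2 KO cells and 12.2% in WT cells. The median change of the 8 genes was 0.56 in p65 KO cells, 1.0 in IKK2 KO cells and 0.85 in WT cells, against medians over all genes within 0.01 of 0. At 90 min 7 genes rose in p65 KO cells (6.48% of all genes changed), 5 in IKK2 KO cells (4.48%), and in WT cells 6 rose and 1 fell (9.32%). From 45 to 90 min the direction differed: 3 genes rose and none fell in p65 KO cells (2.73% of all genes changed), whereas 5 fell and 1 rose in IKK2 KO cells (15.7%) and 4 fell and none rose in WT cells (14.3%).

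**Figure D2:**
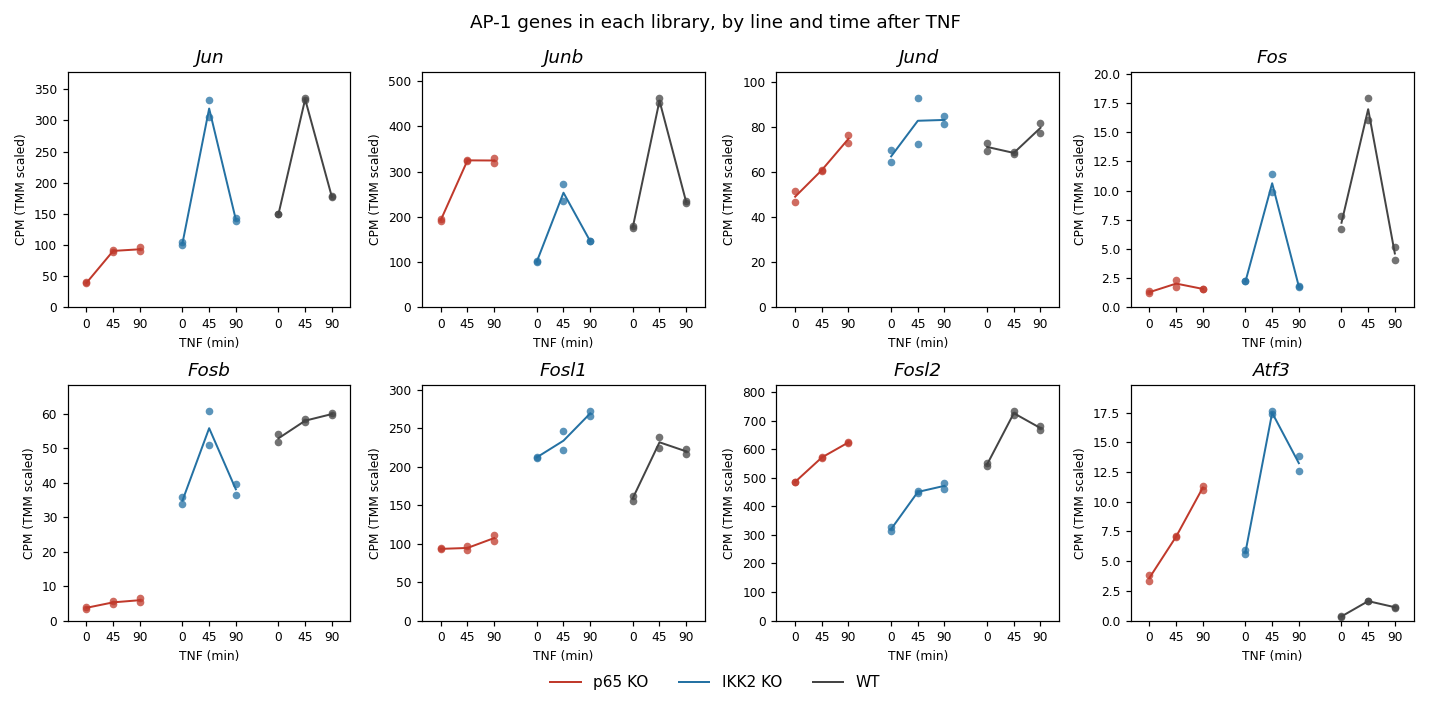
CPM (scaled by TMM) of each AP-1 gene against minutes of TNF, 0, 45 and 90, for p65 KO, IKK2 KO and WT cells; points are single libraries and lines join the means of 2. Of the times sampled, Jun, Junb and Fos are highest at 45 min in IKK2 KO and WT cells, whereas Jun and Junb stay near their 45 min level at 90 min in p65 KO cells and Atf3 goes on rising there.

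Jun rose at both times in every line, and at 90 min its rise was largest in p65 KO cells, the line with its lowest level. In p65 KO cells it had 40.0 and 38.6 CPM untreated, 92.3 and 88.8 CPM at 45 min and 96.6 and 89.8 CPM at 90 min. IKK2 KO cells had 100.5 and 105.4 CPM untreated, 332 and 306 CPM at 45 min and 142.6 and 139.3 CPM at 90 min. WT cells had 150.0 and 149.6 CPM untreated, 332 and 336 CPM at 45 min and 178 and 177 CPM at 90 min. The 90 and 45 min libraries overlapped in p65 KO cells, whereas in IKK2 KO and WT cells every 90 min library lay below every 45 min library. The log2 rise at 45 min was 1.2 ± 0.05 in p65 KO cells, 1.63 ± 0.04 in IKK2 KO cells and 1.16 ± 0.03 in WT cells, and at 90 min it was 1.25 ± 0.05, 0.45 ± 0.04 and 0.24 ± 0.03 in the same lines. From 45 to 90 min Jun changed by 0.04 in p65 KO cells (95% interval −0.04 to 0.12), but fell by 1.18 in IKK2 KO cells and by 0.91 in WT cells on the log2 scale. Even after its rise, Jun in p65 KO cells did not reach the lowest untreated WT library.

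Junb, a JUN protein that can oppose Jun at some genes, rose at both times in every line, less at 45 min in p65 KO cells than in the other lines. It had 196.2 and 190.3 CPM untreated, 324 and 327 CPM at 45 min and 329.8 and 319.8 CPM at 90 min in p65 KO cells. IKK2 KO cells had 99.7 and 102.6, 272 and 235, and 146 and 147 CPM at the same times. WT cells had 179.6 and 175.2, 451 and 463, and 235 and 231 CPM. As for Jun, the 45 and 90 min libraries overlapped in p65 KO cells and were apart in the other lines. The rise at 45 min was 0.75 ± 0.04 in p65 KO cells, 1.32 ± 0.04 in IKK2 KO cells and 1.37 ± 0.04 in WT cells (adjusted p = 6.4e-15, 1.8e-20 and 4.6e-23). At 90 min it was 0.75 ± 0.04 in p65 KO cells, 0.53 ± 0.05 in IKK2 KO cells and 0.40 ± 0.04 in WT cells. The step from 45 to 90 min was a fall of 0.79 ± 0.04 in IKK2 KO cells and 0.97 ± 0.04 in WT cells, while in p65 KO cells its 95% interval was −0.08 to 0.07.

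Jund, the JUN gene usually described as constitutive, was the steadiest of the 8, with 1.69 times between its highest and lowest group mean. It had 51.5 and 46.9 CPM untreated, 61.2 and 60.8 CPM at 45 min and 76.6 and 73.2 CPM at 90 min in p65 KO cells, and the rise at 90 min passed the test (0.61 ± 0.09, adjusted p = 0.0013). In IKK2 KO cells it had 64.5 and 69.7, 93.0 and 72.8, and 85.0 and 81.6 CPM, and in WT cells 73.0 and 69.5, 69.0 and 68.2, and 77.5 and 82.1 CPM. The 2 IKK2 KO libraries at 45 min lay further apart than those of any other group, with an SD of 14.3 CPM, against 0.315 to 3.69 CPM in the other groups. This was not particular to Jund: that group also had the largest SD relative to the mean for Jun, Junb and Fosl1. Library b was below library a there for Jun, Junb, Fos, Fosb and Fosl1 too, but above it for Fosl2. The uncalled 45 min changes were 0.31 in p65 KO cells (95% interval 0.11 to 0.52) and 0.30 in IKK2 KO cells (0.10 to 0.51), both called by DESeq2 (adjusted p = 0.017 and 0.0051). Over 12 alternatives their adjusted p ran from 6.4e-06 to 0.60 and from 2.4e-08 to 0.47. Without IKK2 KO 45 min library b, the change there was 0.47 (adjusted p = 2.4e-08). At 90 min the uncalled change in IKK2 KO cells was 0.31 (95% interval 0.11 to 0.52, adjusted p = 0.094), and it was called in 3 of 12 alternatives, DESeq2 among them (adjusted p 3.7e-06 to 0.41). The changes in WT cells were −0.05 at 45 min (95% interval −0.25 to 0.15) and 0.16 at 90 min (−0.03 to 0.35). The WT change at 90 min was called in 2 of 12 alternatives, edgeR without a filter (adjusted p = 0.025) and with only the groups compared (adjusted p = 0.0083). The same 2 called the WT step from 45 to 90 min, which was otherwise not called (0.22, 95% interval 0.02 to 0.41).

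Fos, the classical immediate-early gene, was scarce in every group, and it rose at 45 min and fell again by 90 min in IKK2 KO and WT cells. In p65 KO cells it had 1.23 and 1.37 CPM untreated, 2.34 and 1.73 CPM at 45 min and 1.6 and 1.56 CPM at 90 min. IKK2 KO cells had 2.22 and 2.23 CPM untreated, 11.4 and 9.86 CPM at 45 min and 1.84 and 1.74 CPM at 90 min. WT cells had 6.70 and 7.80 CPM untreated, 17.9 and 16.0 CPM at 45 min and 5.15 and 4.08 CPM at 90 min. Every 45 min library lay above the untreated libraries of its line, and in WT cells every 90 min library lay below the untreated ones. The rise at 45 min was 2.25 ± 0.16 in IKK2 KO cells and 1.22 ± 0.10 in WT cells (adjusted p = 6.7e-15 and 3.1e-13). In p65 KO cells the change was 0.62 ± 0.24 and did not pass the test (adjusted p = 0.22, 95% interval 0.14 to 1.09). At 90 min Fos was below untreated cells in WT (−0.66 ± 0.13, adjusted p = 4.2e-04), and its changes of 0.28 in p65 KO cells (95% interval −0.22 to 0.77) and −0.31 in IKK2 KO cells (−0.80 to 0.17) were not called. From 45 to 90 min Fos fell by 2.56 ± 0.16 in IKK2 KO cells and by 1.88 ± 0.11 in WT cells.

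Fosb, the closest relative of Fos, was lowest in p65 KO cells at every time. It had 4.02 and 3.36, 5.63 and 4.91, and 5.24 and 6.55 CPM in p65 KO cells at 0, 45 and 90 min. IKK2 KO cells had 35.9 and 33.7, 60.7 and 50.8, and 36.4 and 39.7 CPM, with both 45 min libraries above the other 4. WT cells had 51.6 and 54.0, 58.3 and 57.5, and 59.6 and 60.1 CPM. At 45 min Fosb rose by 0.67 ± 0.07 in IKK2 KO cells (adjusted p = 9.5e-11) and then fell by 0.55 ± 0.06. At 90 min it was above untreated in p65 KO cells (0.68 ± 0.16, adjusted p = 0.0038), a call lost without p65 KO untreated library b (0.55, adjusted p = 0.14) and without 90 min library b (0.51, adjusted p = 0.15). Over 12 alternatives that adjusted p ran from 7.7e-05 to 0.15. In WT cells the 90 min change of 0.18 ± 0.06 was called (adjusted p = 0.032), but it held in 6 of 12 alternatives (adjusted p 0.0064 to 0.47): it was lost in DESeq2, under scaling by library size alone, and without either untreated library (0.15 without a, 0.21 without b) or either 90 min library (0.19 without a, 0.17 without b). The uncalled 45 min changes were 0.51 in p65 KO cells (95% interval 0.18 to 0.84) and 0.13 in WT cells (0.02 to 0.24). The p65 KO change was called by edgeR without a filter on low counts (adjusted p = 0.043) and with only the groups compared (adjusted p = 0.028).

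Fosl1 and Fosl2, which encode the FRA proteins, rose in most comparisons with untreated cells. Fosl1 had 93.9 and 92.4 CPM untreated, 97.1 and 91.6 CPM at 45 min and 103.8 and 110.6 CPM at 90 min in p65 KO cells. It had 211 and 213, 246 and 222, and 266 and 272 CPM in IKK2 KO cells, and 156 and 162, 239 and 225, and 223 and 217 CPM in WT cells. At 45 min Fosl1 rose by 0.14 ± 0.04 in IKK2 KO cells and by 0.54 ± 0.04 in WT cells, but in p65 KO cells the change was 0.02, with a 95% interval of −0.07 to 0.10. The IKK2 KO call at 45 min was lost without untreated library a (0.13, adjusted p = 0.084) and without 45 min library a (0.064, adjusted p = 0.42), with adjusted p from 1.3e-04 to 0.42 over 12 alternatives. At 90 min the rise was 0.20 ± 0.04 in p65 KO cells, 0.34 ± 0.04 in IKK2 KO cells and 0.47 ± 0.04 in WT cells. The call in p65 KO cells was lost without 90 min library b (0.16, adjusted p = 0.079; 2.4e-06 to 0.079 over 12 alternatives). From 45 to 90 min Fosl1 rose in IKK2 KO cells (0.21 ± 0.04) and in p65 KO cells (0.19 ± 0.04). The p65 KO call was lost without 45 min library b (0.15, adjusted p = 0.25) and without 90 min library b (0.14, adjusted p = 0.22), and its adjusted p ran from 4.3e-05 to 0.25 over 12 alternatives.

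Fosl2 rose in all 3 lines at both times. It had 487 and 484, 568 and 574, and 623 and 625 CPM at 0, 45 and 90 min in p65 KO cells. It had 313 and 327, 446 and 455, and 483 and 461 CPM in IKK2 KO cells, and 552 and 542, 719 and 733, and 679.6 and 668 CPM in WT cells. No treated library overlapped the untreated libraries of its line. The rise at 45 min was 0.23 ± 0.03 in p65 KO cells, 0.49 ± 0.03 in IKK2 KO cells and 0.41 ± 0.03 in WT cells, and at 90 min it was 0.36 ± 0.03, 0.56 ± 0.03 and 0.30 ± 0.03 in the same lines. From 45 to 90 min Fosl2 rose by 0.13 ± 0.03 in p65 KO cells, fell by 0.11 ± 0.03 in WT cells, and changed by 0.07 ± 0.03 in IKK2 KO cells (adjusted p = 0.083). These small steps depended on single libraries: the p65 KO call was lost without 45 min library a (0.12, adjusted p = 0.069) and the WT call without 90 min library b (−0.095, adjusted p = 0.052), while the IKK2 KO step was called without 90 min library b (0.10, adjusted p = 0.033). Over 12 alternatives each, the adjusted p ran from 1.3e-04 to 0.069 in p65 KO cells, from 0.033 to 0.64 in IKK2 KO cells and from 2.3e-04 to 0.052 in WT cells.

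Atf3, which encodes a stress-induced ATF protein, rose at both times in every line. In p65 KO cells it had 3.33 and 3.86 CPM untreated, 7.12 and 7.01 CPM at 45 min and 11.3 and 11 CPM at 90 min. IKK2 KO cells had 5.59 and 5.94 CPM untreated, 17.6 and 17.3 CPM at 45 min and 13.9 and 12.6 CPM at 90 min. WT cells had 0.406 and 0.287 CPM untreated, 1.63 CPM in both libraries at 45 min and 1.09 and 1.15 CPM at 90 min. Every untreated p65 KO or IKK2 KO library lay above every WT library, TNF-treated ones included. The rise at 45 min was 0.97 ± 0.12 in p65 KO cells, 1.6 ± 0.10 in IKK2 KO cells and 2.24 ± 0.33 in WT cells, and at 90 min it was 1.63 ± 0.11, 1.2 ± 0.11 and 1.70 ± 0.36 in the same lines. From 45 to 90 min it rose further in p65 KO cells (0.66 ± 0.09, adjusted p = 7.4e-06). In IKK2 KO cells it fell by 0.40 ± 0.08 over that time (adjusted p = 3.5e-04), a call not made by DESeq2 (adjusted p = 0.11; 1.5e-04 to 0.11 over 12 alternatives). In WT cells the step was −0.54 with a 95% interval of −1.06 to −0.03. It was not called (edgeR's unadjusted p = 0.054, adjusted p = 0.21). The interval, computed from the standard error, does not match that unadjusted p exactly, and the call follows edgeR's p.

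**Figure D3:**
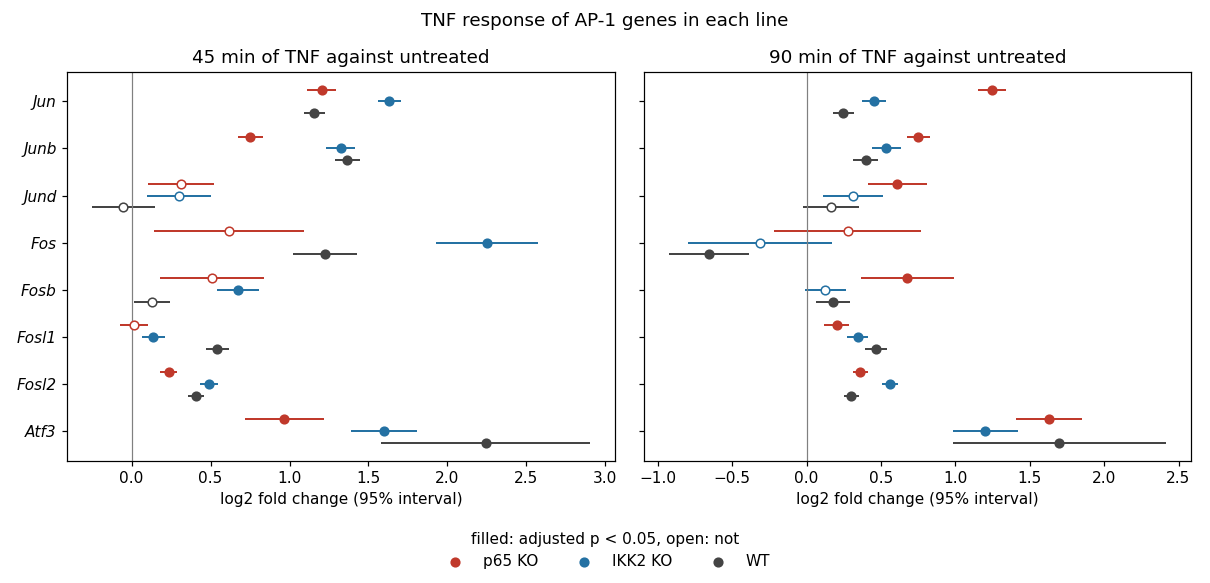
Log2 fold change of each AP-1 gene at 45 min (left) and 90 min (right) of TNF against untreated cells of the same line, with 95% intervals, for p65 KO, IKK2 KO and WT cells; filled points have an adjusted p under 0.05. At 45 min Fos spreads from 0.62 in p65 KO cells to 2.25 in IKK2 KO cells, and at 90 min Jun is highest in p65 KO cells, at 1.25.

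Differences between lines in the TNF response were tested as contrasts of their own. They compare log2 changes, so that weaker and stronger refer to fold changes and not to the CPM gained. At 45 min the response was weaker in p65 KO than in WT cells for 4 of the 8 genes and stronger for none, where 7.08% of all genes tested differed. The differences were −0.61 ± 0.05 for Junb, −0.53 ± 0.06 for Fosl1, −0.17 ± 0.04 for Fosl2 and −1.28 ± 0.36 for Atf3 (adjusted p = 4.9e-10, 1.4e-09, 7.2e-04 and 0.028). The call for Atf3, which rests on the few WT counts, held in 10 of 16 alternatives (adjusted p 0.023 to 0.30). It was lost in DESeq2 (−1.29) and without WT untreated library a (−1.51) or b (−1.02), WT 45 min library a (−1.27) or b (−1.28), or p65 KO untreated library b (−1.16). Jun showed no called difference between p65 KO and WT cells (0.05 ± 0.06, 95% interval −0.07 to 0.16). Fos was not called either, although its 95% interval was −1.14 to −0.07. No alternative called it, with differences from −0.81 to −0.38. Jund (0.36 ± 0.13, adjusted p = 0.14) was called higher in p65 KO cells in 3 of 16 alternatives, DESeq2 among them (adjusted p 3.6e-05 to 0.36).

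At 90 min the difference from WT cells was positive for Jun, Junb and Fos. The log2 change in p65 KO cells was higher than in WT cells for Jun (1.0 ± 0.06, adjusted p = 1.9e-17), Junb (0.35 ± 0.06) and Fos (0.93 ± 0.28, adjusted p = 0.038), and lower for Fosl1 (−0.26 ± 0.06), where 5.39% of all genes tested differed. The call for Fos held in 9 of 16 alternatives (adjusted p 0.017 to 0.20). It was lost in DESeq2 (0.94), without WT untreated library b (0.81), without WT 90 min library b (0.78), and without any 1 of the 4 p65 KO libraries untreated (0.87 without a, 1.02 without b) or at 90 min (0.92 without a, 0.96 without b). Fosb (0.50 ± 0.17, adjusted p = 0.071) was called in 5 of 16 alternatives (adjusted p 0.021 to 0.46), among them the fit without p65 KO 90 min library a (0.66, adjusted p = 0.031). Jund (0.45 ± 0.12, adjusted p = 0.068) was called in 4 of 16 alternatives, DESeq2 among them (adjusted p 5.6e-07 to 0.23).

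IKK2 KO cells were set against WT cells in the same way. At 45 min the response in IKK2 KO cells was stronger than in WT cells for Jun (0.48 ± 0.05), Fos (1.03 ± 0.20) and Fosb (0.54 ± 0.09), and weaker for Fosl1 (−0.40 ± 0.05), where 4.86% of all genes tested differed. In CPM the rise of Fos was larger in WT cells, with means from 7.25 to 17.0 CPM, against 2.23 to 10.6 CPM in IKK2 KO cells. For Jun, Fosb and Fosl1 the order in CPM was that of the log2 changes. Junb differed by −0.04, with a 95% interval of −0.16 to 0.08. Jund, at 0.35 ± 0.13, was called in 3 of 16 alternatives (adjusted p 7.3e-07 to 0.49), among them the fit without IKK2 KO 45 min library b (0.52, adjusted p = 7.3e-07). At 90 min the response in IKK2 KO cells was stronger for Fosl2 (0.26 ± 0.04, adjusted p = 5.2e-06) and Jun (0.21 ± 0.05, adjusted p = 0.018), where 2.35% of all genes tested differed. The call for Jun held in 11 of 16 alternatives (adjusted p 0.0045 to 0.17), and was lost in DESeq2 (0.22) and without WT untreated library a (0.21), WT 90 min library b (0.21), IKK2 KO untreated library a (0.18) or IKK2 KO 90 min library a (0.19). All comparisons with WT share the WT libraries.

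Between the knock-outs, 5 genes responded more strongly at 45 min in IKK2 KO than in p65 KO cells and none more weakly, where 5.91% of all genes tested differed. These were Fos (1.63 ± 0.30), Atf3 (0.63 ± 0.17), Junb (0.57 ± 0.06), Jun (0.43 ± 0.06) and Fosl2 (0.26 ± 0.04). The call for Atf3 (adjusted p = 0.015) held in 13 of 16 alternatives (adjusted p 0.013 to 0.24) and was lost in DESeq2 (0.64), without p65 KO untreated library b (0.52) and without IKK2 KO untreated library a (0.59). Fosl1, at 0.12 ± 0.06, was called in 1 of 16 alternatives, the fit without IKK2 KO 45 min library b (0.20, adjusted p = 0.022; 0.022 to 0.76 over all 16). At 90 min the response was weaker in IKK2 KO than in p65 KO cells for Jun (−0.79 ± 0.06, adjusted p = 2.6e-12) and stronger for Fosl2 (0.20 ± 0.04), where 1.67% of all genes tested differed. Junb was called weaker in IKK2 KO cells at 90 min only under library size alone (−0.28), without a filter (−0.22) and with only the groups compared (−0.21). Jund was also called weaker without a filter (−0.30) and with only the groups compared (−0.29), and Fosb without a filter (−0.56) and under library size alone (−0.61).

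**Figure D4:**
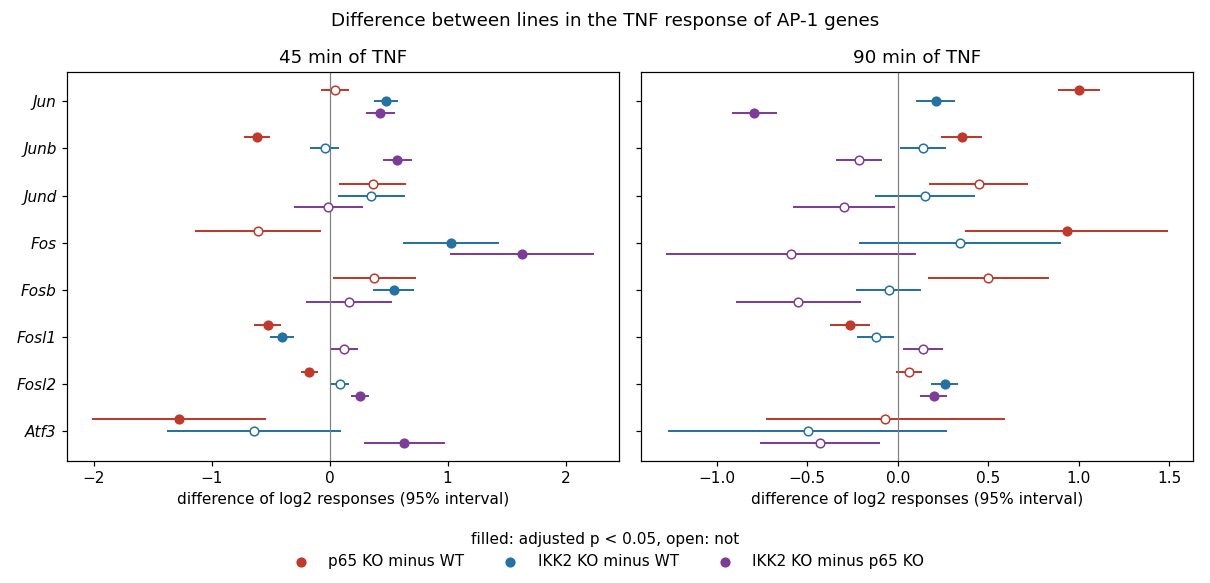
Difference between 2 lines in the log2 TNF response of each AP-1 gene at 45 min (left) and 90 min (right), with 95% intervals; the 3 colours are p65 KO minus WT, IKK2 KO minus WT and IKK2 KO minus p65 KO, and filled points have an adjusted p under 0.05. Junb stands at −0.61 at 45 min and 0.35 at 90 min for p65 KO minus WT, and Jun at 0.05 and 1.0.

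Likeness between genes was measured over 6 responses (45 and 90 min in 3 lines) as the root mean square difference of their log2 changes. Within a line both changes share the untreated libraries. Genes with small changes lie near each other on this measure, also where their order over time differs. Jund and Fosb were nearest each other (0.20), followed by Fosl1 and Fosl2 (0.22). In IKK2 KO cells, however, Fosb changed by 0.67 and 0.13 and Jund by 0.30 and 0.31 at 45 and 90 min. Jun and Junb were 0.32 apart, whereas Jund and Atf3 were farthest apart (1.39). The search covered 11194 other genes with at least 2 CPM in their highest group, and genes with predicted, clone or Rik names were left out. Among them the gene nearest to Jun was Dusp8, a phosphatase of MAP kinases, at 0.11. Dusp8 changed by 1.10 and 1.33 in p65 KO cells, 1.67 and 0.63 in IKK2 KO cells and 1.16 and 0.39 in WT cells at 45 and 90 min. Tcim (0.45) and Ier3 (0.51) followed. The genes nearest to Junb were Ier3 (0.26), an immediate-early gene, Nfkbiz (0.32), which encodes a nuclear IκB protein, and Bbc3 (0.32), which encodes the cell death protein PUMA. For Fos they were Ppm1k (0.44), Egr2 (0.53) and Ier2 (0.56), the last 2 also immediate-early genes. For Atf3 they were Ccl9 (0.63), a chemokine gene, Fas (0.66), a death receptor gene, and Ier3 (0.68).

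Other genes of the pathway were taken from lists, beside which the shares of all genes called at 45 min were 1.66% in p65 KO cells, 8.76% in IKK2 KO cells and 12.2% in WT cells. Of 19 listed leucine-zipper factors that can pair with or resemble AP-1 proteins, 16 were tested. At 45 min 2 rose and none fell in p65 KO cells, where 4 had an unadjusted p under 0.05 and DESeq2 called 1. In IKK2 KO cells 3 rose and 2 fell, and in WT cells 6 rose and 1 fell. The largest changes were in Maff (0.36 ± 0.07) and Mafg (0.18 ± 0.04), small MAF genes, in p65 KO cells, in Ddit3 (0.80 ± 0.13), a stress-response factor, and Mafk (−0.30 ± 0.06) in IKK2 KO cells, and in Maf (1.66 ± 0.53) and Ddit3 (1.12 ± 0.16) in WT cells. Maf was scarce in WT cells, at 0.575 CPM at 45 min against 0.184 CPM untreated. The median change of the list was −0.06 in p65 KO cells, 0.04 in IKK2 KO cells and 0.07 in WT cells, against 0.01 or less in size over all genes.

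Of 24 MAP kinase pathway members 22 were tested, and in each line 1 fell and none rose at 45 min, where 1.66%, 8.76% and 12.2% of all genes were called in p65 KO, IKK2 KO and WT cells: Mapk9, which encodes JNK2, in p65 KO cells (−0.17 ± 0.05), and Map2k4, a kinase that activates JNK, in IKK2 KO cells (−0.24 ± 0.04) and WT cells (−0.18 ± 0.04). At an unadjusted p under 0.05 the numbers were 3, 5 and 5, and DESeq2 called 0, 1 and 1, in the same order of lines. Of 6 genes of serum response factor and its partners, which drive Fos transcription, Srf fell at 45 min in IKK2 KO cells (−0.27 ± 0.04) and Srf (−0.23 ± 0.05) and Elk3 (−0.18 ± 0.03) fell in WT cells. None of the 6 was called in p65 KO cells, where 2 had an unadjusted p under 0.05 and DESeq2 called 0. Of 6 genes for JUN protein turnover and co-regulators, none was called at 45 min in any line, with 2, 1 and 0 at an unadjusted p under 0.05 in p65 KO, IKK2 KO and WT cells and 0 called by DESeq2.

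Of 13 listed textbook AP-1 target genes, 10 were tested. Without TNF, 8 were lower and 1 higher in each knock-out than in WT cells, where the shares of all genes called were 80.8% for p65 KO cells and 74.3% for IKK2 KO cells. The median difference of the list was −1.22 in p65 KO cells and −0.91 in IKK2 KO cells, against −0.02 and −0.03 over all genes. At 45 min 3 rose and 1 fell in p65 KO cells, none rose and 2 fell in IKK2 KO cells, and 3 rose and 3 fell in WT cells, where 1.66%, 8.76% and 12.2% of all genes were called in the same order of lines. Hbegf, which encodes a growth factor, rose by 0.33 ± 0.05 in p65 KO cells but fell by 0.28 ± 0.03 in IKK2 KO cells and by 0.40 ± 0.03 in WT cells. Plau, which encodes urokinase, rose by 0.29 ± 0.03 in p65 KO cells, Cd44 fell by 0.09 ± 0.03 in IKK2 KO cells, and Hmox1, which encodes haem oxygenase, fell by 0.34 ± 0.06 in WT cells. At 90 min 3 rose and 1 fell in p65 KO cells, 4 rose in IKK2 KO cells and 8 rose in WT cells, where 6.48%, 4.48% and 9.32% of all genes were called. The list medians were 0.06, 0.19 and 0.34 in the same order of lines, against 0.00 over all genes in each line. DESeq2 called 3, 4 and 6 of them at 90 min in the same order of lines.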

How the data were processed

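Counts per gene were deposited by the authors for 18 libraries as estimated counts, 31.8% of the non-zero values being fractional, and they were rounded to whole numbers here. The labels' protocols give growth in DMEM with serum, Trizol and column RNA, and a directional total RNA library kit. The submitters' processing notes name FastQC 0.11.8, Trimmomatic, HISAT2, featureCounts, Subread 1.6.2, edgeR 3.26.4 and GRCm38. Not given in the sources used here are the strand setting, how reads shared between genes were handled, and the annotation release.

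Genes were filtered with filterByExpr, which lost 0.0601% of the counts, and libraries were scaled by TMM. Tests used edgeR 4.0.16 (R 4.3.3) and its quasi-likelihood method with robust settings, 9 group coefficients over all 18 libraries and 18 contrasts, each adjusted by Benjamini-Hochberg over 16322 genes at a threshold of 0.05. Log2 changes are given ± standard error, taken as the size of the change over the square root of the test's F statistic. The 95% intervals use that standard error and can differ from edgeR's p-values. The residual degrees of freedom were 9, and sharing the spread across genes added prior ones (median 32.2). The totals used were 29.1 for Junb, 11.4 for Jund and 41.2 for the other AP-1 genes. Alternatives were DESeq2 1.42.0, RLE scaling, library size alone, no filter or a stricter filter (at least 1 CPM in 2 libraries), unrounded counts, protein-coding genes alone, only the groups compared, and leaving out each library. The fits were checked on simulated data. Libraries of a group differed by more than counting error (chi-square per degree of freedom 1.12 to 4.02), so none was counted as a duplicate. Columns name the group but no replicate number, and libraries are called a and b in column order. Python 3.11.15 and matplotlib 3.10.9 drew the figures.

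The 8 genes and the pathway lists were chosen with earlier results of these data known. From each list the 2 largest called changes at 45 min in each line were named, and for Jun, Junb, Fos and Atf3 the 3 genes nearest over 6 log2 changes. Symbols and positions came from GENCODE M21, in which all 55536 IDs were found.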

Additional observations from a re-analysis of the deposited data

Results flagged for a closer look

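A difference between lines in the TNF response itself passed the test in 21 cases, all values being differences of log2 responses. Of p65 KO minus WT cells at 45 min, the values were −0.61 for Junb, −0.53 for Fosl1, −0.17 for Fosl2 and −1.28 for Atf3. At 90 min they were 1.0 for Jun, 0.35 for Junb, 0.93 for Fos and −0.26 for Fosl1, so that Junb stood on opposite sides of 0 at the 2 times.

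Of IKK2 KO minus WT cells at 45 min, the values were 0.48 for Jun, 1.03 for Fos, 0.54 for Fosb and −0.40 for Fosl1, and at 90 min 0.21 for Jun and 0.26 for Fosl2. Of IKK2 KO minus p65 KO cells at 45 min, they were 0.43 for Jun, 0.57 for Junb, 1.63 for Fos, 0.26 for Fosl2 and 0.63 for Atf3. At 90 min they were −0.79 for Jun and 0.20 for Fosl2. The lines differed in untreated level for most of these genes, and the part of that difference in the response was not tested.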

How the results depend on the processing

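The number of AP-1 genes called stayed within 1.5 times its value in 15 of the 18 comparisons under every alternative. For p65 KO minus WT at 90 min, 4 were called, and 7 under library size alone. For IKK2 KO minus WT at 90 min, 2 were called, 1 in DESeq2, and 1 to 2 when leaving out each library. For IKK2 KO minus p65 KO at 90 min, 2 were called, 4 under library size alone, 5 without a filter and 4 with only the groups compared. The step of Jund from 45 to 90 min in IKK2 KO cells turned from 0.01 to −0.16 without 45 min library b (adjusted p = 0.043) and to 0.19 without library a (adjusted p = 0.012), over 12 alternatives with adjusted p from 0.012 to 1. Between 1 and 4 alternatives called Jund in 12 comparisons in which it was otherwise not called. Scaling by library size alone moved the median of all genes in untreated IKK2 KO cells to −0.21 against WT and −0.20 against p65 KO. It also moved the share of higher genes among all called ones by over 10 percentage points in 12 comparisons, most in the 90 min responses of p65 KO minus WT (72.7%, against 35.6%) and of IKK2 KO minus p65 KO (17.7%, against 57.1%). Over all genes, outside the untreated comparisons, DESeq2 called 129 to 1323 genes, against 271 to 2566 of the 16322 genes tested by edgeR. DESeq2 was given all 30522 genes with any count and applies its own filter, so that shares of these 2 totals are not comparable. For p65 KO cells at 45 min, 271 were called, 487 under library size alone and 533 with only the groups compared, and at 90 min 1058, and 1646 under library size alone. No paired analysis was possible because the columns carry no replicate number. Few counts limit the precision of Atf3 in WT cells and of Fos in p65 KO and IKK2 KO cells.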
